A study of Caenorhabditis elegans with 16 samples.

Results

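The 21U-RNA clusters of chromosome IV were followed here as 2619 bins of 1000 bases, out of 100257 bins that tile the Caenorhabditis elegans genome. A bin belonged to the left cluster when it lay in IV:4500001–7000000 and to the right cluster when it lay in IV:13500001–17200000. It also had to carry neither of the authors' marks GRH and GRTS, whose meaning is not given in the sources used here, and to reach a mean of at least 5 RPKM (reads per kilobase, scaled to library size) over 16 libraries. These conditions left 684 of 2494 unmarked bins in the left cluster (27.4%) and 1935 of 3684 in the right cluster (52.5%). The rest of chromosome IV held 3100 such bins of 11234 (27.6%) and was the reference for the clusters. The marks removed 6 bins of the left window and 16 of the right one. Just inside the threshold were IV:15916001–15917000 in the pseudogene Y105C5B.7 (5.0019 RPKM, 5 21U-RNA genes) and the gene-free bin IV:15565001–15566000 (5.0037 RPKM, 9 21U-RNA genes). Just outside, both at 4.9956 RPKM, were IV:5361001–5362000 in hda-6, which codes for a histone deacetylase, and IV:6180001–6181000 in an intron of unc-77, which codes for a subunit of a sodium leak channel.

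21U-RNAs are the piRNAs of C. elegans. Each is transcribed from its own short unit in the germline, trimmed to a fixed length that starts with uridine, and bound by the Argonaute protein PRG-1. Their genes crowd into broad clusters on chromosome IV, inside introns and between genes. PRG-1 with its 21U-RNA scans germline transcripts and recruits RNA-dependent RNA polymerases, which make secondary siRNAs against the target, and HRDE-1, a nuclear Argonaute, carries such siRNAs into the nucleus and through generations.

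Small RNAs of whole young adult hermaphrodites were cloned by a procedure that does not require a 5′ monophosphate, with 1 library for each of 16 genotypes or stages. The wild-type background was N2, 2 backgrounds carried the set-32 alleles ok1457 or red11, and 1 carried met-2(n4256) together with set-25(n5021). Each came in 4 hrde-1 states: never mutant, mutant for the tm1200 allele, and repaired (+R), with repaired animals taken at F5 (F8 in set-32(ok1457)) and at F20. MET-2 and SET-25 methylate histone H3 at lysine 9, and SET-32 also carries a SET domain. No genotype had a replicate, so p-values rest on how much a difference varied between backgrounds or between states, not between cultures of one strain. The series title names the start of heritable nuclear silencing as the question, and repair of hrde-1 lets a locus be followed from the mutant state onwards. A bin sums both strands and all small RNA lengths as far as the table shows, so 21U-RNAs, siRNAs and fragments of longer RNAs in one bin cannot be told apart. In whole animals, fewer cells of a type and less RNA per cell cannot be told apart either.

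A single read was taken to be worth 1.45 to 6.3 RPKM in a bin, the most frequent value of at least 1 RPKM in each library. Values below this unit also occurred, so numbers of reads are approximate. By this unit the bins of a library held 142.8 to 500.1 kiloreads (1000 reads each). The median left cluster bin therefore rested on 2 to 8.04 reads in a library and the median right cluster bin on 1 to 6.84 reads, so single bins were measured coarsely. The libraries carried 3 name prefixes: SG0717 for 12 libraries, SG1116 for N2 alone, and SG0315 for the wild-type hrde-1 mutant and the never mutant and mutant libraries of met-2 set-25. In 5 libraries the RPKM values summed to 89.98 to 96.66% of the total that full scaling would give, against 67.67 to 80.48% in the other 11. These 5, called the high-total libraries below, were met-2 set-25 at F5 and, for both set-32 alleles, the libraries in the never mutant and hrde-1 mutant states. Summed small RNAs over 8 intestine markers were at 138.2 to 616.1 RPKM in them against 4414 to 12429 RPKM in the other 11, muscle markers at 50.31 to 283.1 against 409.8 to 1734, and hypodermis markers at 0.02 to 20.28 against 117.8 to 432.9. Neuron, sperm, and oocyte and germline markers overlapped between these sets of libraries, the last at 983.3 to 1931 against 915 to 1597 RPKM. A term for this split entered only alternative fits for counts of called bins, given with the other settings below. Its part in the levels and medians was not tested.

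The annotation placed 14204 of the 15363 21U-RNA genes of the genome (92.46%) in the 2 windows, 2816 in the left and 11388 in the right. All were annotated as 21 bases long, and 48.2% lay on the plus strand in the left window and 50.1% in the right. The clusters differed in make-up. In the right cluster 1561 of 1935 bins (80.7%) held at least 1 21U-RNA gene and 985 (50.9%) overlapped a protein-coding gene. In the left cluster 200 of 684 bins (29.2%) held a 21U-RNA gene and 562 (82.2%) overlapped a coding gene. The rest of chromosome IV had 55 bins with a 21U-RNA gene among 3100 (1.77%), and 92.1% overlapped a coding gene. By these counts the left cluster stood between the right cluster and the rest of the chromosome.

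In the right window, small RNA levels stepped up with the number of 21U-RNA genes in a bin. Over all unmarked bins, including those below the threshold, the median bin had a mean of 2.35 RPKM with 0 such genes (1039 bins), 4.40 with 1 to 4 (1531 bins), 8.53 with 5 to 9 (1055 bins) and 12.8 with 10 or more (59 bins). All 59 of the densest bins passed the threshold, against 36% of the bins with none. Bins over introns of coding genes and no coding exon showed the same order, from 0.75 RPKM with none to 5.36, 9.57 and 12.8 RPKM. Bins over coding exons were at 4.16 RPKM with none, 4.29 with 1 to 4, 8.04 with 5 to 9 and 13.5 with 10 or more.

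The left window showed this order less simply. Its medians were 1.91 RPKM with 0 21U-RNA genes (1308 bins), 1.66 with 1 to 4 (1079 bins) and 4.41 with 5 to 9 (107 bins), and no bin held 10. Over introns alone the left medians were 0.18, 1.58 and 3.91 RPKM, each below the right cluster's value for the same number of genes. Over coding exons the bins with none stood at 4.32 RPKM, about level with those holding 5 to 9 (4.56). These are descriptions over bins, which share libraries and neighbours, and no test was made.

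**Figure D1:**
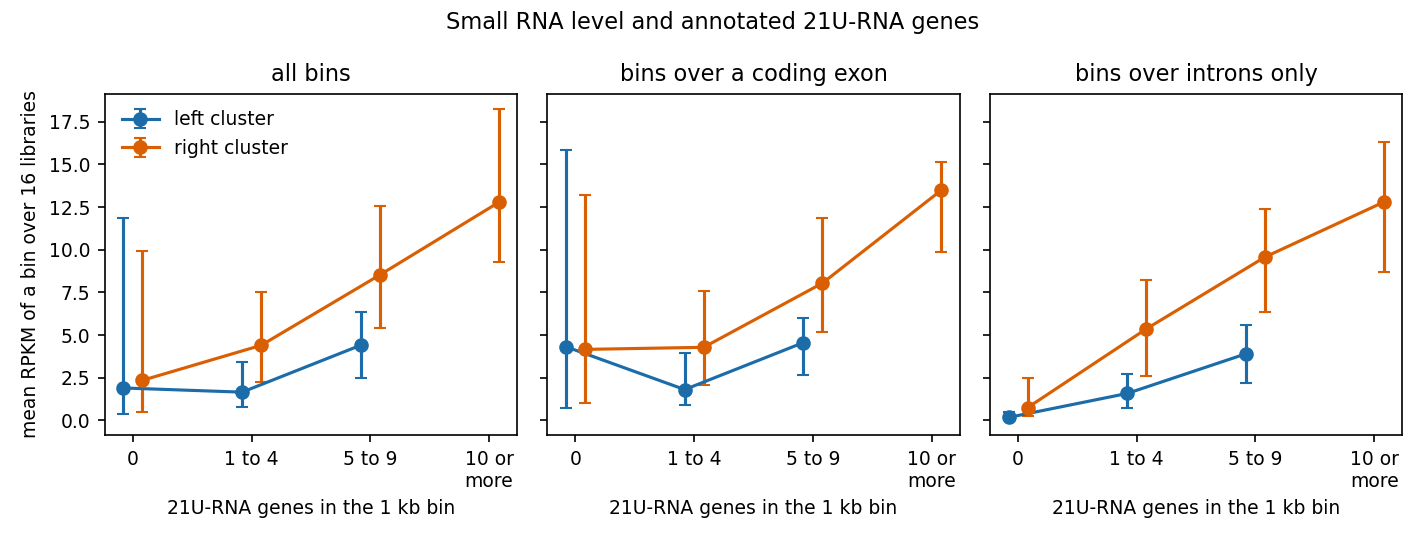
Mean RPKM over 16 libraries of unmarked 1000-base bins by the number of annotated 21U-RNA genes, for the left and right cluster windows, with points at the median bin and bars from the lower to the upper quartile. In the right window the median goes from 2.35 RPKM with 0 genes to 12.8 RPKM with 10 or more, and over introns alone both windows step up.

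Among bins with no coding exon, the relation was highest without a shift of the annotation in both clusters. Across the 3684 unmarked right bins, Spearman's rho between the number of 21U-RNA genes and the mean RPKM was 0.387 in the bin itself and 0.164 in the neighbouring bins. Among the 2039 right bins with no coding exon it was 0.535, against 0.256 and 0.237 at 1 kb. In the left window it was 0.036 over all 2494 bins, no higher than at some other shifts (0.045 at 8 kb). Over the 965 left bins with no coding exon it was 0.436, against at most 0.276 at any other shift up to 8 kb. The same comparison in stretches of 500 kb, on bins with no coding exon, had its highest rho without any shift in 12 of 13 stretches. The exception was the first stretch of the left cluster (0.211 without a shift, 0.236 at 8 kb), where the names given to bins are less certain.

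**Figure D2:**
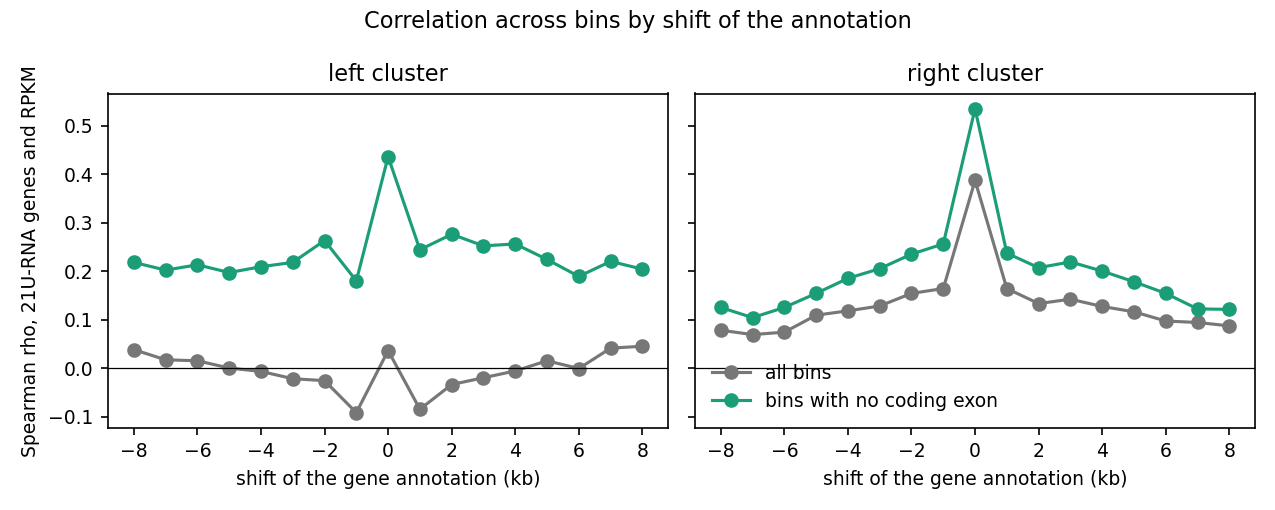
Spearman's rho across bins between the number of 21U-RNA genes and mean RPKM, on the vertical axis, when the annotation is shifted by up to 8 kb, on the horizontal axis, for all unmarked bins and for bins with no coding exon. Both clusters peak without a shift among bins with no coding exon, at 0.436 in the left and 0.535 in the right.

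The brightest bins of the clusters were not the ones richest in 21U-RNA genes. The median of the members' mean RPKM was 13.8 in the left cluster, 9.82 in the right and 14.2 in the rest of chromosome IV. Members with no 21U-RNA gene had medians of 17.2 RPKM in the left cluster and 14.8 in the right, while members with 5 to 9 had 7.37 and 9.92. Right members with 10 or more had 12.8 RPKM. In the right window the threshold kept 36% of the bins with none and 78.8% of those with 5 to 9, so these medians describe members only. Over all unmarked right bins the order was the reverse, 2.35 RPKM with none and 8.53 with 5 to 9. The 5 highest bins held 12.58% of the members' RPKM in the left cluster, none of them with a 21U-RNA gene. In the right cluster they held 5.897%, and 2 of them contained a 21U-RNA gene.

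The highest left bin, IV:6088001–6089000, lies in the pseudogene K08B4.5 (WBGene00019517) and had a mean of 784.8 RPKM. It ranged from 316.2 RPKM in N2 to 1120 in the set-32(ok1457) hrde-1 mutant, and the 4 states overlapped. K08B4.5 also held the bins at IV:6089001–6090000 and IV:6086001–6087000, and in each of these 3 bins the 3 lowest libraries were N2 and the F8 and F20 repaired libraries of set-32(ok1457), at 316.2, 452 and 479.6 RPKM in the highest bin. Second in the left cluster was IV:4725001–4726000 over the coding gene K08F11.1 (629.2 RPKM), with 382.8 RPKM in never mutant met-2 set-25 and 1176 in the set-32(ok1457) hrde-1 mutant. The remaining bin of the left 5, which overlaps the end of linc-29, is described with the hrde-1 comparison.

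In the right cluster the highest bin, IV:14754001–14755000, covers the small coding gene Y57G11C.499 and 2 21U-RNA genes (600.5 RPKM). It stood at 792.9, 1101, 1020 and 693.8 RPKM in the hrde-1 mutants of wild type, the ok1457 and red11 alleles of set-32, and met-2 set-25, against 599.1, 783.3, 458.7 and 490.5 RPKM in their never mutant counterparts. The mutant was higher in each background but the groups overlapped, and the difference did not pass the threshold (limma, adjusted p = 0.225). Next were IV:14780001–14781000 (344.7 RPKM), marked misanotated by the authors and holding a snoRNA gene, and IV:16316001–16317000 in the pseudogene K03D3.13. The others were IV:15647001–15648000, over the pseudogene Y105C5A.14 and a short coding gene, and IV:13654001–13655000 in Y45F10C.6 (286.8 RPKM). None of these 5 right bins was called in any comparison.

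Among bins that passed the threshold, the left cluster stayed near parity with the rest of chromosome IV. Among the same bins the right cluster stayed below the rest in all 16 libraries. The threshold kept 52.5% of right bins and 27.6% of the rest. Over all unmarked bins the right mean exceeded that of the rest in most libraries. It was lower only in N2 (6.87 against 7.985 RPKM), the set-32(red11) hrde-1 mutant (9.677 against 10.12) and met-2 set-25 at F5 (9.09 against 9.357). The ratios below use bins that passed the threshold. The mean RPKM of left bins divided by that of the rest was 0.932 ± 0.059 in never mutant libraries, 1.01 ± 0.068 in hrde-1 mutants, 0.908 ± 0.044 in early repaired and 0.927 ± 0.019 in F20 libraries (SD, n = 4 each). In each of the 4 backgrounds the left ratio was higher in the mutant than in the never mutant library, by log2 differences of 0.07 in wild type, 0.18 in set-32(ok1457), 0.15 in set-32(red11) and 0.08 in met-2 set-25. It was lower in the repaired libraries than in the mutant in each background, by a mean log2 difference of −0.16 (SD 0.08) early and −0.13 (SD 0.10) at F20. The sizes are small beside the range over libraries, 0.843 to 1.11, and each mutant library serves in all these differences.

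The right ratio was 0.543 ± 0.064 in never mutant libraries, 0.554 ± 0.047 in mutants, 0.604 ± 0.069 early after repair and 0.644 ± 0.051 at F20 (SD, n = 4 each). Its F20 values exceeded the mutant ones in each background, by log2 0.13 in wild type, 0.37 in set-32(ok1457), 0.36 in set-32(red11) and 0.03 in met-2 set-25. The larger differences were those of the set-32 alleles, whose mutant libraries were high-total and whose F20 libraries were not. The mean RPKM of right bins was 16.7 ± 0.47 in mutants and 16.3 ± 0.33 at F20, while that of the rest was 30.4 ± 3.04 and 25.5 ± 1.80 (SD, n = 4 each). From mutant to F20 the right ratio thus moved mainly with its denominator. Together the clusters made up 5.43 to 6.85% of a library's summed RPKM.

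Bins that hold 21U-RNA genes and no other annotated gene were also read on their own. The right cluster had 780 of them. Their mean in never mutant libraries was 6.75 RPKM in N2, 13.6 in set-32(ok1457), 13.6 in set-32(red11) and 14.5 in met-2 set-25. In hrde-1 mutants of the same backgrounds it was 13.8, 11.8, 11.7 and 12.4 RPKM. Early after repair it was 14.7, 12.5, 13.8 and 10.5 RPKM, and at F20 it was 14.2, 15.2, 14.3 and 12.8 RPKM. N2 stood apart below the other 15 libraries, which ranged from 10.5 to 15.2 RPKM, and the states otherwise overlapped.

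The 59 bins with 10 or more 21U-RNA genes repeated this, with 8.46 RPKM in N2 and 12.8 to 21.8 RPKM in the other 15 libraries. Cluster bins without a 21U-RNA gene did not share the low value: N2 had 26.2 RPKM there, within the 23.2 to 40.9 RPKM of the other 15. Their ratio to the rest of chromosome IV was 1.03 in N2 and 0.984 to 1.19 elsewhere. N2 was the only library with the prefix SG1116, so its genotype and its prefix cannot be told apart. N2 also had the highest sperm, muscle and hypodermis marker sums of the 16 libraries (681.2, 1734 and 432.9 RPKM). Its oocyte and germline sum was the lowest (915 RPKM), while its intestine and neuron sums lay within the range of the others. The part of these marker differences in its low values was not tested.

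Set against the rest of chromosome IV, the 780 bins with 21U-RNA genes alone had a ratio of 0.264 in N2. The 5 high-total libraries followed at 0.329 to 0.430, and the remaining 10 libraries lay at 0.443 to 0.654. The ratio thus separated the high-total libraries from the others, apart from N2. Its denominator, the mean over the rest of chromosome IV, also differed between them, at 31.2 to 34.3 RPKM in the high-total libraries and 23.3 to 29.0 in the other 11. The mean over the 780 bins overlapped, at 10.5 to 13.6 RPKM in the high-total libraries and 12.4 to 15.2 in the remaining 10. Within the SG0717 prefix the 7 libraries that were not high-total ranged from 0.462 to 0.654, all above the 5 that were. The correlation between 21U-RNA gene number and RPKM across right bins did the same, with rho of 0.027 to 0.219 in the high-total libraries, 0.090 in N2 and 0.324 to 0.482 in the other 10.

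**Figure D3:**
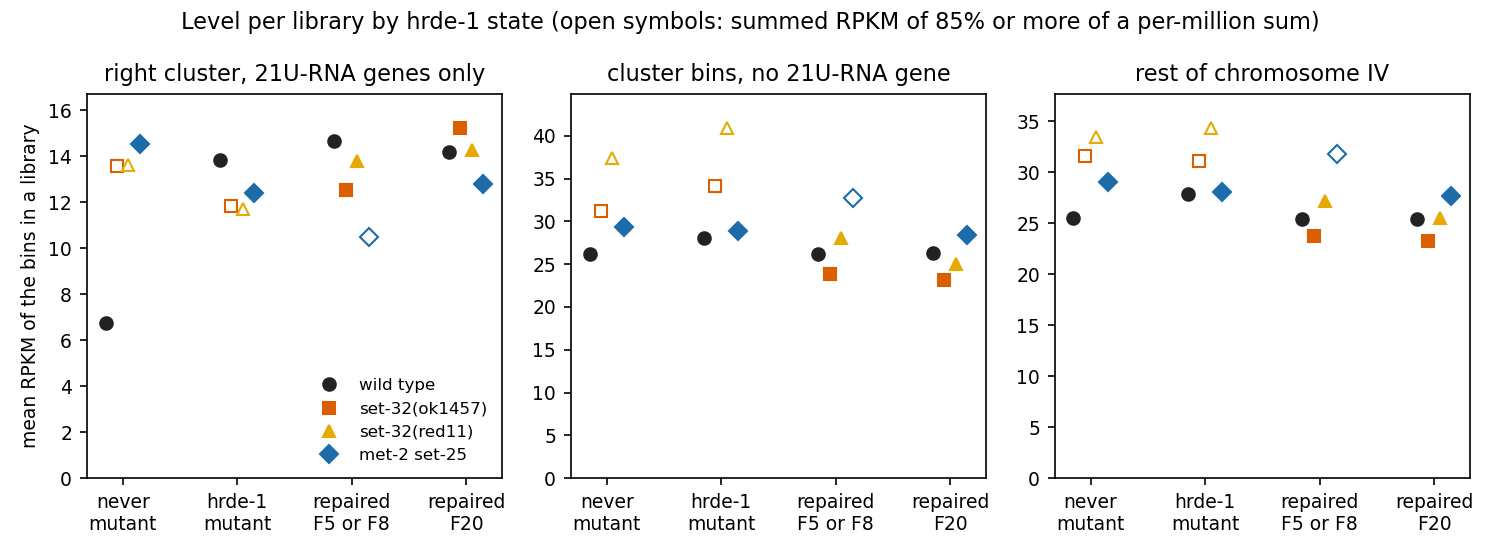
Mean RPKM per library, by hrde-1 state on the horizontal axis and background by symbol, for 780 right cluster bins with 21U-RNA genes and no other gene, for 858 cluster bins with no 21U-RNA gene and for the rest of chromosome IV. N2 lies at 6.75 RPKM in the first panel, below all other libraries, and within their range in the others; open symbols mark the 5 high-total libraries.

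Loss of hrde-1 was read from the 4 mutant and 4 never mutant libraries, which asks whether the clusters depend on the Argonaute that acts downstream of PRG-1. Values were compared as log2(RPKM + 1) by limma over all 25407 tested bins of the genome with the background as a block, and a bin was called at p under 0.05 after Benjamini-Hochberg adjustment. Of the 2619 cluster bins, 6 rose (0.229%) and 4 fell (0.153%), 0.382% in all. Of all tested bins 0.425% rose and 0.712% fell, 1.14% in all. In the rest of chromosome IV 17 of 3100 rose and 17 fell. The median log2 difference was 0.13 over the cluster bins, 0.06 over the rest of chromosome IV and 0.05 over all bins.

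The pairs behind that median differed, at 0.87 in wild type against −0.01 in set-32(ok1457), −0.02 in set-32(red11) and −0.14 in met-2 set-25. In wild type the median difference was 0.21 over cluster bins with no 21U-RNA gene, 0.89 with 1 to 4, 1.38 with 5 to 9 and 1.78 with 10 or more, beside 0.24 over the rest of chromosome IV. For bins with 5 to 9 21U-RNA genes it was −0.02 in set-32(ok1457), −0.14 in set-32(red11) and −0.21 in met-2 set-25. The wild-type pair sets N2 (prefix SG1116) against a mutant of prefix SG0315, whereas the other 3 pairs each share a prefix. The cluster median less that of the rest of chromosome IV averaged 0.11 over the 4 pairs (SD 0.35), and −0.06 without the wild-type pair. Among the 874 cluster bins with 5 to 9 21U-RNA genes, 2 rose and 0 fell (limma), with 15 higher (1.72%) and 3 lower (0.34%) at p under 0.05 before adjustment, below the 4.93% and 5.99% of all tested bins.

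**Figure D4:**
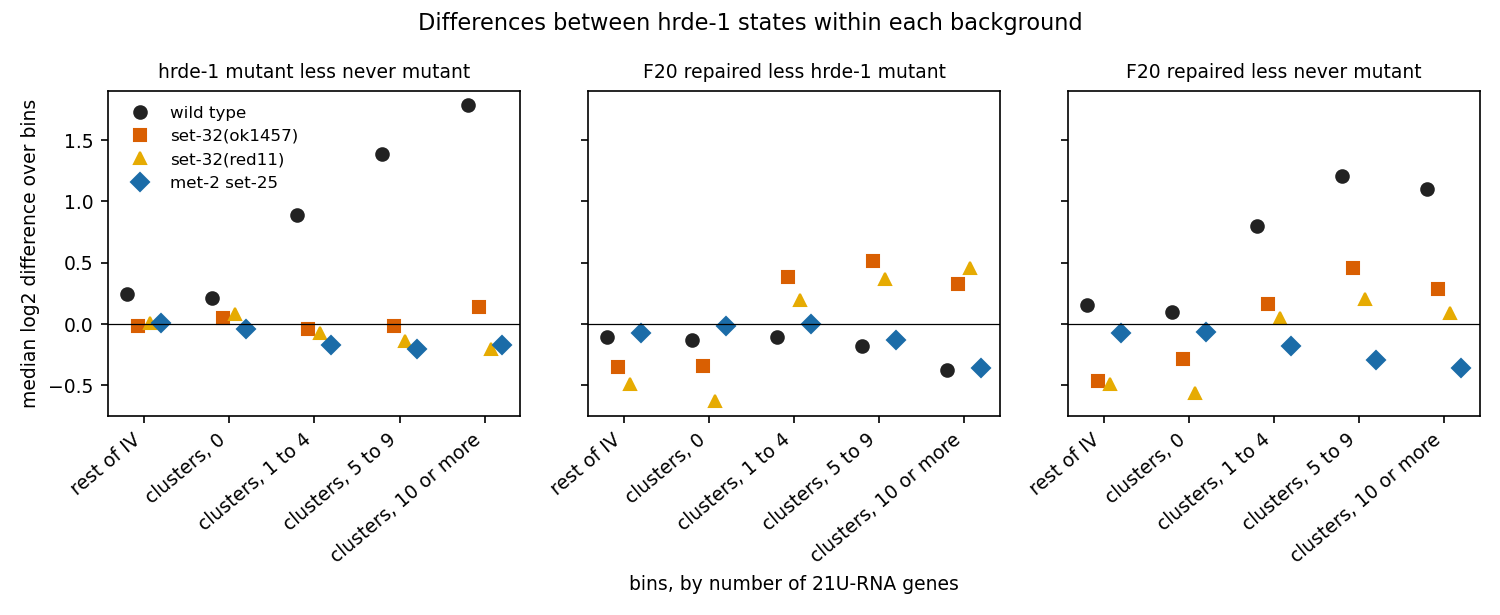
Median log2 difference over bins between hrde-1 states, 1 symbol per background, for the rest of chromosome IV and for cluster bins by number of 21U-RNA genes. In the first panel the wild-type pair climbs from 0.24 to 1.78 while the other 3 backgrounds lie between −0.21 and 0.14; the last 2 panels share libraries with the first.

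The raised bins lay over 2 coding genes and 1 stretch without other genes. ugt-22, which codes for a UDP-glucuronosyltransferase (IV:13639260–13644567), held 3 of them. In its bin IV:13643001–13644000, the never mutant libraries of wild type, the ok1457 and red11 alleles of set-32, and met-2 set-25 had 4.35, 0, 0 and 11.2 RPKM and the mutants 56.1, 59.6, 49.7 and 79.8 RPKM. The groups were far apart (log2 difference 4.43 ± 0.60 SE; limma, adjusted p = 0.0145). The bins at IV:13640001–13641000, with 5 21U-RNA genes, and IV:13642001–13643000 rose as well, by log2 2.37 ± 0.40 (adjusted p = 0.0294) and 3.68 ± 0.54 (adjusted p = 0.0176).

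xdh-1, the xanthine dehydrogenase gene (IV:14401114–14412894), held the largest difference among the cluster bins. At IV:14409001–14410000 the never mutant libraries had 2.9, 0, 0.11 and 1.86 RPKM and the mutants 101.5, 46.9, 70.6 and 77.4 RPKM, in the same order of backgrounds (log2 5.27 ± 0.44; limma, adjusted p = 0.00677). The neighbouring bin, IV:14410001–14411000, contains 7 21U-RNA genes and rose from 3.75 ± 3.88 to 39.6 ± 21.8 RPKM (SD, n = 4; adjusted p = 0.0149). These log2 sizes depend on the pseudocount, because the never mutant values lie near 0.

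IV:16898001–16899000, with 2 21U-RNA genes and no other, had 2.93, 8.58, 7.34 and 8.38 RPKM in never mutant libraries. The mutants had 16.2, 83.1, 121.9 and 18.8 RPKM, so both set-32 mutants stood well above the others (log2 2.56 ± 0.49; limma, adjusted p = 0.0491). It was the one raised bin of the 780 with 21U-RNA genes alone.

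The 4 bins that fell held no 21U-RNA gene, and neither did 484 of the 684 left cluster bins and 374 of the 1935 right ones. IV:6357001–6358000 overlaps the end of linc-29, a long intergenic RNA gene of the left cluster (IV:6354024–6357243), and lies mostly beyond it. This bin went from 305.2, 304.1, 296.7 and 184.8 RPKM to 91.0, 149.1, 94.6 and 91.5 RPKM (log2 −1.35 ± 0.23; limma, adjusted p = 0.0294). At F20 it stood at 271.9, 257.2, 256.3 and 189.8 RPKM, back in the never mutant range, though the change from the mutant was not called (adjusted p = 0.257). The pseudogene F02H6.4 (WBGene00008537), at IV:14217001–14218000, went from 68.0 ± 35.4 to 17.1 ± 6.39 RPKM (adjusted p = 0.0332). srt-47, of the serpentine receptor family T, went from 24.1 ± 28.6 to 1.07 ± 2.13 RPKM at IV:15050001–15051000 (adjusted p = 0.0488), with 3 of 4 mutants listed at 0. Its never mutant values were 4.35, 66.0, 7.34 and 18.6 RPKM, so that mean rested largely on set-32(ok1457). Without the never mutant libraries the srt-47 bin would miss the mean of 5 RPKM, so this call is not independent of the filter. Y73F8A.26, at IV:15476001–15477000, went from 92.3 ± 30.2 to 24.2 ± 10.2 RPKM (SD, n = 4; adjusted p = 0.0271).

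The 10 calls depended on which backgrounds entered. Without wild type limma called 9 higher and 3 lower, without set-32(ok1457) 4 and 1, without met-2 set-25 1 and 0, and without set-32(red11) 0. No filter on low bins gave 0 calls, and a pseudocount of 0.25 gave 2.

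After repair of hrde-1 the called bins of the backgrounds took different courses. At F5 the first xdh-1 bin had 69.0 RPKM in wild type, and at F20 46.4 RPKM, against 2.9 RPKM in N2. In set-32(red11) it had 32.4 and 32.02 RPKM, in set-32(ok1457) 18.1 at F8 and 9.75 at F20, and in met-2 set-25 0 and 1.81 RPKM. The ugt-22 bin at IV:13643001–13644000 had 19.3 and 9.78 RPKM in wild type, 60.3 and 22.8 in set-32(ok1457), 22.3 and 22.9 in set-32(red11), and 0.52 and 1.76 in met-2 set-25. At both loci the repaired met-2 set-25 libraries were the lowest of the 4 backgrounds. In Y73F8A.26 they were the highest, at 163.8 and 163.3 RPKM, above the 93.1 RPKM of their never mutant library, while repaired set-32 libraries lay between 21.1 and 32.4 RPKM. None of these differences between backgrounds was tested, since each value is 1 library.

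Across backgrounds, limma called 1 cluster bin lower and 0 higher early after repair than in the mutant, where 0.0433% of all tested bins were lower and 0% higher. At F20 it called 1 lower and 0 higher, where 0.130% of all bins were lower and 0.00394% higher. Before adjustment, 26 cluster bins were higher (0.99%) and 83 lower (3.17%) early with p under 0.05, against 2.22% and 5.72% of all tested bins. At F20 49 were higher (1.87%) and 88 lower (3.36%), against 2.77% and 7.45%, so lower bins outnumbered higher ones across the genome and not in the clusters alone. Both calls fell on IV:6007001–6008000 in the left cluster, which overlaps no annotated gene. Its mutants had 293.6, 204.6, 423.9 and 124.3 RPKM, in the order wild type, ok1457, red11 and met-2 set-25. Early after repair it had 49.7, 0, 2.03 and 0 RPKM (log2 −6.08 ± 0.76, adjusted p = 0.0457), and at F20 68.4, 0, 4.57 and 0.02 RPKM (log2 −5.74 ± 0.79, adjusted p = 0.0437).

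The never mutant libraries had 56.6, 134.4, 137 and 1.86 RPKM in that bin. After repair the wild-type values lay about N2, the met-2 set-25 values lay near 0 like its never mutant library, and both set-32 alleles lay below theirs. No difference between repaired and never mutant libraries was called there (limma, adjusted p = 1 early and 0.958 at F20). The bins on either side, looked at because of this result, had the same shape without being called. IV:6006001–6007000 had an early log2 difference of −4.82 (adjusted p = 0.0649) and IV:6008001–6009000 one of −5.07 (adjusted p = 0.0949). Leaving out met-2 set-25 or set-32(red11) left 0 calls early and at F20, leaving out set-32(ok1457) gave 1 higher early and 0 at F20, and leaving out wild type gave 3 and 4 lower. Values centred on library medians gave 0 calls at both times.

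**Figure D5:**
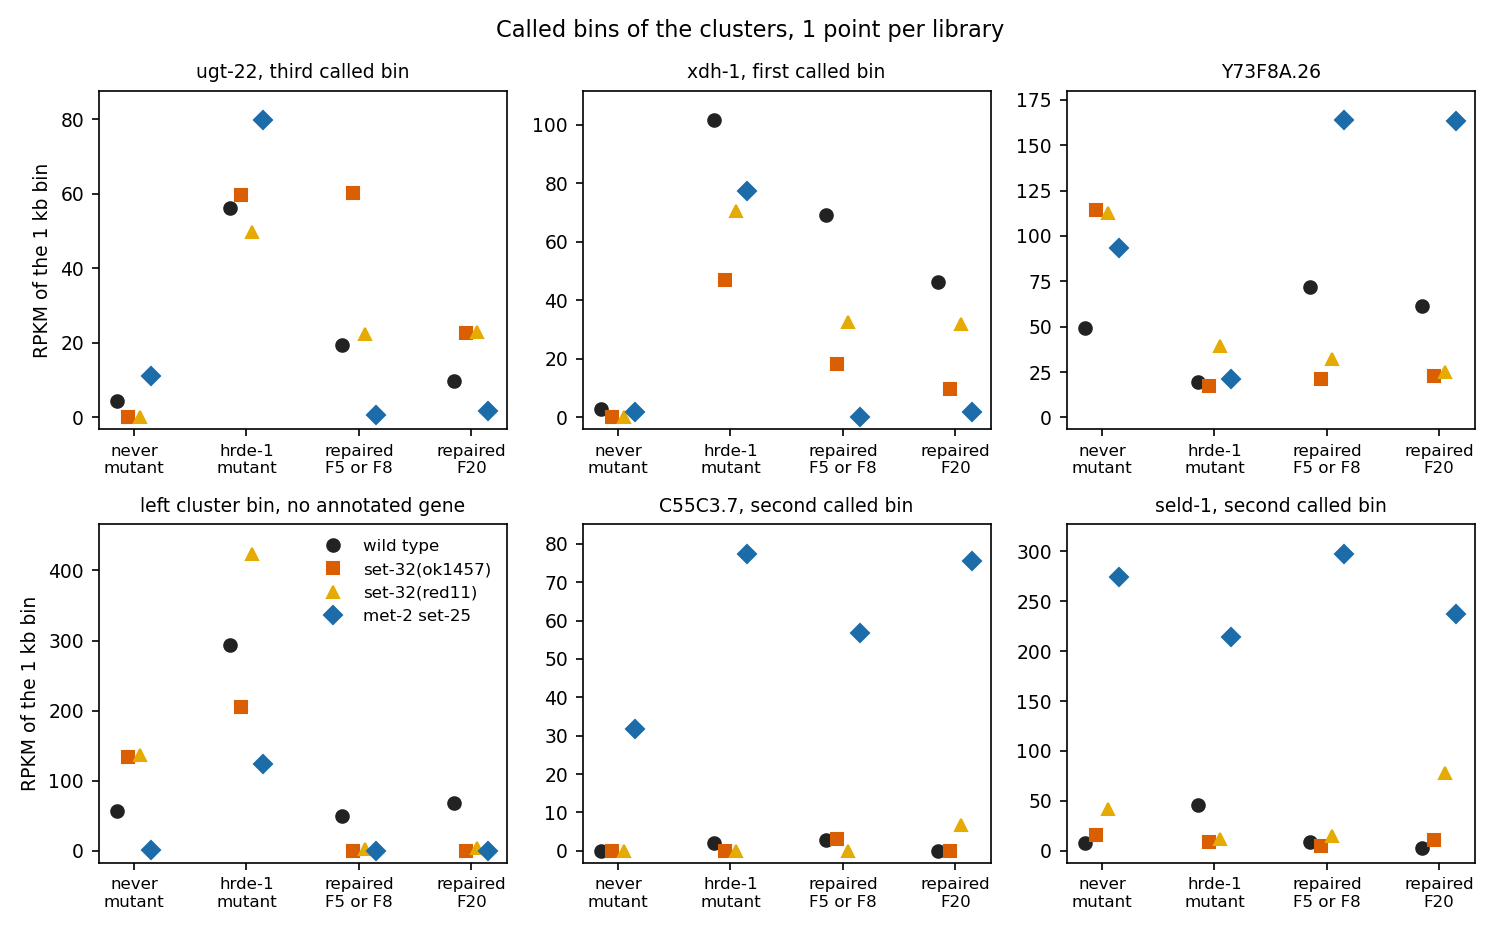
RPKM of 6 called cluster bins in each library, by hrde-1 state on the horizontal axis and background by symbol. The ugt-22 and xdh-1 bins are high in all 4 hrde-1 mutants, the gene-free left cluster bin is near 0 in repaired set-32 and met-2 set-25 libraries, and the C55C3.7 and seld-1 bins are high in all 4 met-2 set-25 libraries.

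Between mutant and F20 libraries, cluster bins with 21U-RNA genes and the rest of chromosome IV had medians of opposite sign in the set-32 backgrounds, although no bin of that kind was called. The median difference of bins with 5 to 9 21U-RNA genes was 0.52 in set-32(ok1457) and 0.37 in set-32(red11), beside −0.35 and −0.48 over the rest of chromosome IV. In wild type it was −0.18 beside −0.11, and in met-2 set-25 −0.131 beside −0.075. Cluster bins with no 21U-RNA gene followed the rest of the chromosome, at −0.34 and −0.63 in the set-32 alleles. The set-32 pairs share a prefix but run from high-total mutant libraries to F20 libraries that were not, and the genotype and this split cannot be told apart. The wild-type and met-2 set-25 pairs run from prefix SG0315 to SG0717.

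Repaired libraries were also set against never mutant ones. limma called 0 cluster bins early (15 higher and 29 lower with p under 0.05 before adjustment) and 0 at F20 (37 and 30), and 0% of all tested bins at both times. The unadjusted shares were 0.57% higher and 1.11% lower early, against 0.81% and 2.76% of all bins, and 1.41% and 1.15% at F20, against 1.07% and 3.18%. Among the 874 bins with 5 to 9 21U-RNA genes, 84.0% had a fitted F20 value above the never mutant one, with a median of 0.41, against 34.0% and −0.20 in the rest of chromosome IV. Early after repair the share was 57.6% and the median 0.11. The never mutant group holds N2, the lowest library over bins with 21U-RNA genes alone, and 2 high-total set-32 libraries, whereas no F20 library was high-total and 1 early library, met-2 set-25, was; their part in these values was not tested. By pair, the F20 median came to 1.20 in wild type, 0.46 in set-32(ok1457), 0.20 in set-32(red11) and −0.29 in met-2 set-25. Early after repair the corresponding values were 1.28, 0.07, 0.13 and −0.94, so the met-2 set-25 pair went the other way at both times. The set-32 pairs share the prefix SG0717. The wild-type and met-2 set-25 pairs set never mutant libraries of prefix SG1116 and SG0315 against repaired ones of SG0717. For them, state and prefix cannot be told apart.

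The backgrounds were compared over the 4 hrde-1 states, with the state as a block. Between set-32 (8 libraries) and wild type (4 libraries) limma called 0 cluster bins and 0% of all tested bins, and before adjustment 122 cluster bins were higher (4.66%) and 36 lower (1.37%) with p under 0.05. Both shares lay below those of all tested bins, 8.78% and 2.97%. The median over bins with 5 to 9 21U-RNA genes was 0.95 in the never mutant state, where N2 is the wild-type library, and −0.71, −0.17 and 0.04 in mutant, early and F20 libraries. The signs thus differed between states, and the fitted median was 0.07.

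Between met-2 set-25 and wild type limma called 5 cluster bins higher and 2 lower (0.191% and 0.0764%, 0.267% in all), where 0.146% of all tested bins were higher and 0.142% lower, 0.287% in all. The higher bins lay in C55C3.7, seld-1 and zip-7, and those in C55C3.7 passed the threshold on mean RPKM only through the met-2 set-25 libraries. seld-1, which codes for a selenophosphate synthetase-like protein, had bins at IV:13506001–13507000 and IV:13507001–13508000 at the edge of the right cluster. At the second bin met-2 set-25 had 274.4, 213.8, 297.5 and 237.2 RPKM in never mutant, mutant, early and F20 libraries, and wild type 7.83, 46.1, 8.82 and 3.01 RPKM (log2 4.49 ± 0.53 SE; limma, adjusted p = 0.0191). The first seld-1 bin had 295.5 ± 64.7 against 36.8 ± 39.1 RPKM (SD, n = 4; adjusted p = 0.0388). High levels were present in every state of met-2 set-25, hrde-1 mutants included. The set-32 libraries had 4.40 to 126 RPKM in the first seld-1 bin and 4.43 to 78.2 in the second, both highest in set-32(red11) at F20.

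C55C3.7 in the left cluster had a bin at IV:5681001–5682000 with 31.7, 77.4, 56.7 and 75.5 RPKM in met-2 set-25 and 0, 2.16, 2.76 and 0 RPKM in wild type (log2 4.97 ± 0.52; limma, adjusted p = 0.0175). Both set-32 alleles stayed between 0 and 6.86 RPKM there. Its bin at IV:5679001–5680000 had 40.5 ± 18.3 against 2.21 ± 0.55 RPKM (adjusted p = 0.0311). Both bins reached the mean of 5 RPKM only through met-2 set-25, the group then called higher. Wild type and set-32 averaged 1.23 and 1.24 RPKM in the first bin and 2.21 and 1.45 RPKM in the second. These calls are thus not independent of the filter. zip-7, which codes for a bZIP transcription factor, was called at IV:16503001–16504000 (adjusted p = 0.0287) with values that overlapped, 20.5, 9.38, 220.4 and 80.5 RPKM against 0.48, 0, 41.5 and 4.89 RPKM.

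The lower bins were neighbours without another gene in the left cluster. IV:6344001–6345000 had 7.29, 34.0, 6.82 and 9.51 RPKM in met-2 set-25 and 153.8, 101.5, 69.6 and 118.8 RPKM in wild type (log2 −3.12 ± 0.43; limma, adjusted p = 0.0357), and IV:6343001–6344000 had 6.30 ± 3.53 against 43.3 ± 17.0 RPKM (SD, n = 4; adjusted p = 0.0377). In the first of them the set-32 libraries had 11.8 to 25.7 RPKM in never mutant and repaired states and 172.5 and 333.4 RPKM in their hrde-1 mutants. Without never mutant, early or F20 libraries in turn limma called 0 bins, and without the mutants 5 higher and 5 lower. Centred values gave 5 higher and 6 lower, against 5 and 2.

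Small RNAs over the genes that make and use 21U-RNAs were read from a list of 28 genes, all matched, with 97 tested bins in 27 of them. limma called 0 of these bins in any of the 7 comparisons. With p under 0.05 before adjustment, 9 were higher and 7 lower in hrde-1 mutants than in never mutant libraries (9.28% and 7.22%, against 4.93% and 5.99% of all tested bins). Against the mutants, 0 were higher and 12 lower early after repair (12.37% lower, against 5.72% of all bins), and 1 was higher and 14 lower at F20 (14.43% lower, against 7.45%). Against never mutant libraries, early repaired libraries had 1 higher and 0 lower (1.03% and 0%, against 0.81% and 2.76% of all bins). F20 libraries had 1 and 5 (1.03% and 5.15%, against 1.07% and 3.18%). In set-32, 11 were higher and 0 lower than in wild type (11.34% higher, against 8.78% of all bins), and in met-2 set-25 4 were higher and 0 lower (4.12% higher, against 7.86%). Summed over each gene, prg-1, the Argonaute itself, ranged from 444.6 to 1062 RPKM over the libraries (median 514), and parn-1, the nuclease that trims 21U-RNA ends, from 255.7 to 433.7 RPKM. Among genes for transcription, prde-1 ranged from 105 to 266.7 RPKM and snpc-4 from 74.0 to 259.1 RPKM, while unc-130 had no tested bin. nrde-2 and hrde-1, which act in nuclear silencing, ranged from 256.1 to 767.3 and from 248.2 to 710.9 RPKM.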

How the data were processed

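The authors deposited RPKM values per bin of 1000 bases, with yes or no columns named GRH, GRTS and misanotated, which are the authors' own marks. Per the submitters' processing notes, Bowtie 0.12.7 was among the tools. Not given in the sources used here are the build, how reads matching several places were handled, and the RPKM denominator. Another 27 library columns matched no sample and were not used. Groups came from the sample titles. Bins were named and 21U-RNA genes counted by their centre from the WBcel235 annotation, after the match was checked at shifts of up to 8 kb. limma 3.58.1 (R 4.3.3; lmFit, eBayes with trend, two-sided) was fitted on log2(RPKM + 1), which understates changes of low bins, and was tested on simulated data. Members, gene lists and tests were chosen with earlier results of these data known. Named bins were the called members, the 5 highest of each cluster and those next to the threshold. Alternatives covered pseudocounts, filters, centring, blocks, library class and each background or state left out. No sequences are printed, as no genome sequence was used here.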

Additional observations from a re-analysis of the deposited data

Results flagged for a closer look

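In 19 groups of 4 libraries, 13.4% of those examined, 1 library lay far from the other 3, by its gap over the group's range (Dixon's test). Chance flags about 1 in 20 groups, and the groups share libraries. The groups were 12 measures of level in each state and the named bins in each state. Bins called between backgrounds were instead examined within wild type and within met-2 set-25 only.

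N2 was the lowest never mutant library in the mean RPKM of right cluster bins (11.85), of right bins with 21U-RNA genes alone (6.747) and of bins with 10 or more 21U-RNA genes (8.458). The met-2 set-25 hrde-1 mutant was the lowest mutant in the right cluster mean (15.99 RPKM). The ratio of the left cluster to the rest of chromosome IV was highest among mutants in set-32(red11) (1.114) and lowest among early repaired libraries in met-2 set-25 (0.8428). Bins without a 21U-RNA gene had their lowest early ratio to the rest in set-32(ok1457) (1.003).

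Among called bins, IV:6357001–6358000 at the end of linc-29 was lowest in met-2 set-25 among never mutant libraries (184.8 RPKM). It was highest in set-32(ok1457) among mutants (149.1 RPKM), and srt-47 was above 0 in 1 mutant, set-32(ok1457) (4.26 RPKM). IV:6007001–6008000 was highest in wild type both early (49.68 RPKM) and at F20 (68.39 RPKM). Within met-2 set-25, IV:6344001–6345000 was highest in the hrde-1 mutant (34.02 RPKM). Within wild type, both seld-1 bins were highest in the hrde-1 mutant (95.14 and 46.06 RPKM) and zip-7 at F5 (41.49 RPKM). Among the highest bins, Y57G11C.499 stood out in wild type at F20 (636.4 RPKM), K03D3.13 in the set-32(red11) mutant (351.8 RPKM) and the Y105C5A.14 bin in the set-32(ok1457) mutant (505.2 RPKM).

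From mutant to F20, the ratio of bins with 10 or more 21U-RNA genes to the rest of chromosome IV was higher in both set-32 alleles (mean log2 0.701) and lower in both wild type and met-2 set-25 (mean log2 −0.099). The difference between these backgrounds was not tested, and the set-32 pairs run from high-total to other libraries.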

How the results depend on the processing

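The cluster median less that of the rest of chromosome IV moved by less than its SD over pairs in 57 of 57 alternatives, which says little because the SDs (0.29 to 0.46) exceed most of the values. Its sign turned without the wild-type pair for mutant against never mutant (0.11 to −0.06), and with no filter on low bins for early and F20 repaired against mutant (−0.14 and −0.02), for early against never mutant (0.25 to −0.16) and for met-2 set-25 against wild type (−0.05 to 0.19). It also turned without hrde-1 mutants for set-32 against wild type (−0.11 to 0.03), and without mutants or without early libraries for met-2 set-25 (0.008 and 0.07). Summed RPKM in place of medians, chosen after seeing the data, gave 0.07 for mutant against never mutant and 0.16 for F20 against never mutant (medians 0.11 and 0.36).

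Counts of called cluster bins depended on the settings. For mutant against never mutant (10 in the text) a pseudocount of 0.25 gave 2, no filter 0 and no background term 4. For early repaired against mutant (1) a pseudocount of 0.25, no filter, centred values and no background term gave 0 each, a pseudocount of 5 gave 3 and a term for the class of summed RPKM 6. For F20 against mutant (1) a pseudocount of 5 gave 3, and a pseudocount of 0.25, no filter, centring, no background term and the class term gave 0 each. For set-32 against wild type (0) a pseudocount of 5 gave 1, no state term 2 and the class term 6. For met-2 set-25 against wild type (7) a pseudocount of 0.25, no filter and the class term gave 0 each, a pseudocount of 5 gave 16 and centring 11. Leaving out 1 background or state gave 0 to 12, 0 to 3, 0 to 4, 0 and 0 to 10 in these comparisons, and 0 for repaired against never mutant under every setting run. The cause of these moves was not tested. A class term could not be fitted for mutant against never mutant, where each pair lies in 1 class.

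Depth limits single bins: the median right cluster bin rested on 1 to 6.84 reads in a library, 3 reads were worth 4.35 to 18.9 RPKM, and a value of 0 allows up to that level.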

Other observations

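A run of 6 neighbouring bins of the right cluster, IV:16834001–16840000, stood out among those with 21U-RNA genes and no other annotated gene. It was picked after its values were seen, and its differences are values without a test of their own. It holds 38 21U-RNA genes, its bins had means of 131.3 to 265.2 RPKM, and it made up 13.42% of the summed RPKM of the 780 such right bins. Over the run the never mutant libraries had a mean of 167.3 RPKM in N2, 336.4 in set-32(ok1457), 297.7 in set-32(red11) and 184.1 in met-2 set-25. The hrde-1 mutants had 122, 202.1, 177.9 and 156.7 RPKM in the same order, lower in each background. Early repaired libraries had 266.2, 174.9, 274.1 and 259.1 RPKM and F20 libraries 271.2, 230.5, 276.7 and 199.2 RPKM. limma called 0 of its 6 bins between mutant and never mutant libraries (3 at an unadjusted p under 0.05, lowest adjusted p = 0.122).

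N2 was not the lowest library over this run, unlike over the other 774 bins with 21U-RNA genes alone, where it had 5.50 RPKM against 8.54 to 13.6 RPKM in the other 15 libraries. A bin at IV:17143001–17144000, with 1 21U-RNA gene, had the same order of states as the run, at 109.3, 209.9, 228.6 and 146 RPKM in never mutant libraries and 57.1, 77.7, 56.1 and 95.9 RPKM in the mutants.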
